A study of Ovis aries with 6 samples.

Results

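The SLC25 family of mitochondrial carriers was described in the longissimus muscle of 2 sheep breeds. Members were the rows of the gene table whose symbol begins with SLC25A and a number, and 44 of the 23144 listed genes met this rule. Of the 44, 34 passed the filter for low counts and were tested, 8 had reads but stayed under the filter, and 2 had no reads in any library. The breeds were Qianhua Mutton Merino, abbreviated QHMM and bred for meat and wool, and the traditional local variety STH, or Small Tail Han, with 3 libraries each. The animals were females aged 1 year, kept in a common environment, and each library came from 1 animal. The paper names no treatment, and live weight was measured after a fast before slaughter. Poly(A) RNA was read on an Ion Proton instrument, and the authors counted uniquely mapped reads on genes. All comparisons are STH vs. QHMM, so that a positive log2 fold change means a higher level in STH. A gene was called up-regulated or down-regulated when its FDR was below 0.05 over all 12506 tested genes and its level differed by more than 1.5-fold.

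The inner membrane of the mitochondrion is closed to most charged metabolites, and SLC25 proteins carry them across it. Most members work as exchangers: they bring a substrate in while another leaves. In muscle, the family moves ADP in and ATP out, feeds phosphate to ATP synthase, carries reducing equivalents of glycolysis inward through the malate-aspartate shuttle and passes acylcarnitines to fatty acid oxidation. Other members supply cofactors, nucleotides, iron and glutathione to the matrix. A few have no settled substrate.

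The reads on genes numbered 10982191 to 14334544 per library. Levels are compared between genes as RPKM, which is scaled by gene length, and differences between the breeds are taken from normalized counts, which are read counts adjusted by edgeR's TMM factors. Muscle markers were abundant in all libraries, although TNNT3, a fast troponin gene, was listed at 0 in all of them. All 8 tested slow-fibre markers had a negative log2 fold change and 3 were called down-regulated, and their summed RPKM was 16581 to 24213 in QHMM and 7324 to 11428 in STH. Of 6 tested adipocyte markers, 4 were called down-regulated, with a summed RPKM of 95.6 to 311 in QHMM and 74.7 to 167 in STH. Of the 4 endothelial and 5 macrophage markers tested, edgeR called none, with 0 and 1 at an unadjusted p below 0.05. All 6 tested fast-fibre markers also had a negative log2 fold change, with a median of -0.52, against -1.28 for the slow-fibre markers. Of these 6, edgeR called 0, and 2 had an unadjusted p below 0.05. Their summed RPKM was 55767 to 76959 in QHMM and 48883 to 65849 in STH. Over all tested genes, edgeR called 3.45%, with 1.83% down-regulated, and 19.2% had an unadjusted p below 0.05. The log2 fold change was positive in 51.8% of them. In whole muscle, fewer cells or fibres of a type and less RNA in each cannot be told apart, and the part that these markers have in the values below was not tested.

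The family spanned a wide range of levels and was dominated by the carriers that serve oxidative phosphorylation. SLC25A4, the ADP/ATP carrier of heart and muscle, had an RPKM of 2088, 2353 and 2552 in QHMM replicates 1, 2 and 3 and of 2557, 2475 and 2683 in the STH replicates, and ranked 32nd among all genes. SLC25A3, the phosphate carrier, followed with an RPKM of 427, 430.1 and 458 in QHMM and 476, 449 and 312 in STH. SLC25A4 alone took 55.0% to 65.9% of all reads on SLC25A members, and SLC25A4 with SLC25A3 took 71.9% to 77.5%. Below them came SLC25A11, the oxoglutarate/malate carrier, with a mean RPKM of 179 over the 6 libraries, and SLC25A6, another ADP/ATP carrier, with 122. SLC25A20, the carnitine/acylcarnitine carrier (60.9), SLC25A12, the aspartate/glutamate carrier also known as aralar (60.4), SLC25A39, a glutathione carrier (56.7), and SLC25A34, whose substrate is not settled (49.8), lay close together in mean RPKM. SLC25A33 (44.4) and SLC25A25 (24.8) completed the 10 members with the highest mean RPKM, but their values were spread widely over the libraries. In all, 15 members had a mean RPKM above 10, 17 lay between 1 and 10, and 10 others had reads at a mean below 1.

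**Figure D1:**
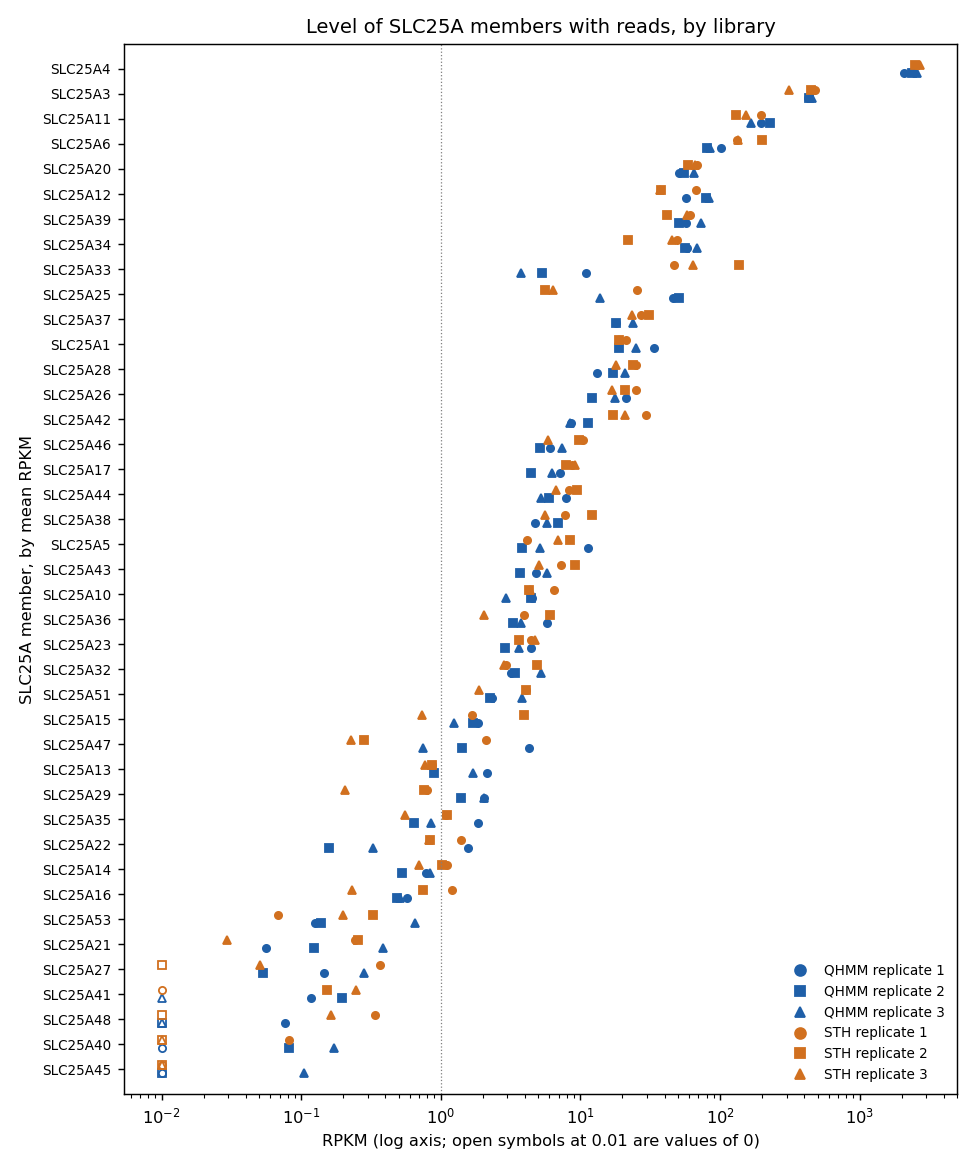
RPKM (log axis) of 41 of the 42 SLC25A members with reads, ordered by their mean, with a symbol for each of the 6 libraries (blue, QHMM; orange, STH). SLC25A4 stands highest at 2088 to 2683, most members show the breeds intermixed, and SLC25A33 shows QHMM at 3.73 to 10.9 and STH at 46.9 to 136.

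The 8 members under the filter and the 2 without reads were hardly detected or not detected. SLC25A31, the ADP/ATP carrier of the testis, and SLC25A2, an ornithine carrier, had 0 reads in all 6 libraries. A count of 0 allows up to 3 reads, which is 0.209 to 0.273 per 1e6 reads at these depths and covers counting error only. The 8 members under the filter were SLC25A21, SLC25A27, SLC25A40, SLC25A41, SLC25A45, SLC25A47, SLC25A48 and SLC25A53, with between 1 and 40 reads over all libraries together. SLC25A47, which is known from liver, had 20, 6 and 3 reads in QHMM and 9, 1 and 1 in STH. No comparison between the breeds is given for these 10 members.

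The share of all reads that fell on the family overlapped between the breeds. SLC25A members took 0.334%, 0.361% and 0.380% of the reads on genes in QHMM and 0.391%, 0.367% and 0.358% in STH, and the 95% Wilson intervals reached from 0.331% to 0.394% over the libraries. The difference of 0.0135 percentage points between the means was smaller than the SD of either breed (0.0234 in QHMM and 0.0170 in STH; exact permutation test, two-sided, p = 0.5). With 3 animals against 3, the smallest p this test allows is 0.1. Without SLC25A4, the share was 0.154% ± 0.00298 (SD, n = 3) in QHMM and 0.146% ± 0.0223 (n = 3) in STH (exact permutation p = 0.7). STH replicate 3 had the lowest share without SLC25A4, at 0.122%, and the highest SLC25A4 value.

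Among the 34 tested members, edgeR called 1 up-regulated and 0 down-regulated in STH. That is 2.94% of the members, against 3.45% of all tested genes (1.62% up and 1.83% down), so the number of calls was near the background. Before adjustment, 9 members (26.5%) had a p below 0.05, 3 with a higher and 6 with a lower level in STH, as had 19.2% of all genes (9.43% up and 9.72% down). An FDR below 0.10 was reached by 3 members and by 7.12% of all genes. DESeq2 called 2 members up-regulated and 1 down-regulated, or 8.82% of the members, against 7.8% of all genes. The log2 fold change was positive in 20 members (58.8%) and negative in 14, and it was positive in 51.8% of all genes. Its median was 0.13 over the members and 0.02 over all genes tested. The libraries of the breeds did not overlap in 12 members, 7 with STH higher and 5 with STH lower, or 35.3%, where 24.7% of all tested genes did not overlap. A difference of more than 1.5-fold, in either direction, was found in 9 members (26.5%) and in 26.7% of all genes. SLC25A33 lay far from the others.

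**Figure D2:**
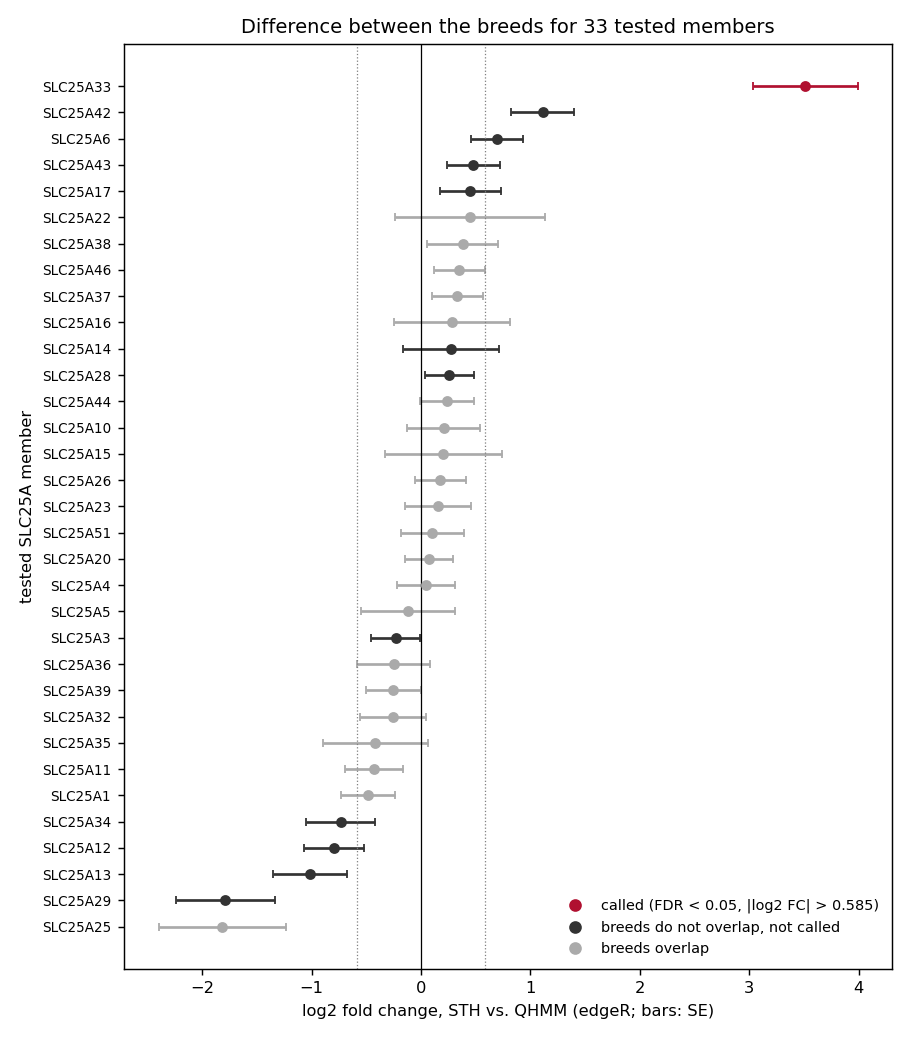
Log2 fold change (STH vs. QHMM, with its SE) of 33 of the 34 tested SLC25A members, with dotted lines at 1.5-fold in either direction. SLC25A33 (red, called) lies at 3.51, the other members between -1.81 and 1.11, and members whose breeds do not overlap are drawn darker than those that overlap.

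SLC25A33 was the only member that edgeR called, and it had the largest difference of the family. It encodes a pyrimidine nucleotide carrier that exchanges UTP, CTP and related nucleotides across the inner membrane. SLC25A33 had 128, 74.3 and 43.0 normalized counts in the QHMM animals (replicates 1, 2 and 3) and 466, 1462 and 886 in STH. Each STH library lay far above each QHMM library, and STH replicate 2 was the highest. The log2 fold change was 3.51 (FDR = 0.00626, SE 0.48), a level 11.4-fold higher in STH. It lay between 3.02 and 3.98 with any 1 library left out, and was called each time. Without both QHMM replicate 2 and STH replicate 3, which lay apart from the others on principal component 2 (loadings of 0.501 and 0.634, against -0.408 to -0.192, with 19.3% of the variance), it was 3.48 with an FDR of 0.0983. That fit of 2 animals against 2 called 11 genes in all. The animals varied within both breeds, with a coefficient of variation (CV) of 52.5% in QHMM and 53.3% in STH. In RPKM, SLC25A33 stood at 10.9, 5.33 and 3.73 in QHMM and at 46.9, 136 and 63.7 in STH.

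SLC25A36, the other pyrimidine nucleotide carrier of the family, did not share this difference. It had 169, 113 and 108 normalized counts in QHMM and 97.3, 161 and 71.1 in STH, for a log2 fold change of -0.25 (FDR = 0.739, SE 0.33). The breeds overlapped. The RPKM of SLC25A36 was 3.27 to 5.79 in QHMM and 2.05 to 6.03 in STH, and SLC25A33 lay above it in each STH library and in QHMM replicates 1 and 2. SLC25A36 was set beside SLC25A33 after the values of both had been seen.

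The other 7 carriers of cofactors and nucleotides were not called. SLC25A42, which brings coenzyme A into the matrix, had 94.4, 149 and 92.1 normalized counts in QHMM and 275, 173 and 274 in STH. The breeds did not overlap, although QHMM replicate 2 and STH replicate 2 came close. Its log2 fold change of 1.11 (FDR = 0.0640, SE 0.29) was not past the threshold in edgeR, and DESeq2 called it (FDR = 0.0159). SLC25A17, a peroxisomal member for coenzyme A and related nucleotides, had 62.5 to 85.4 in QHMM and 86.1 to 129 in STH, a log2 fold change of 0.45 (FDR = 0.410, SE 0.28). SLC25A26, the S-adenosylmethionine carrier, SLC25A32, which is linked to folate and FAD, SLC25A51, the NAD carrier, and SLC25A16 had log2 fold changes between -0.26 and 0.29, and the breeds overlapped in each.

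**Figure D3:**
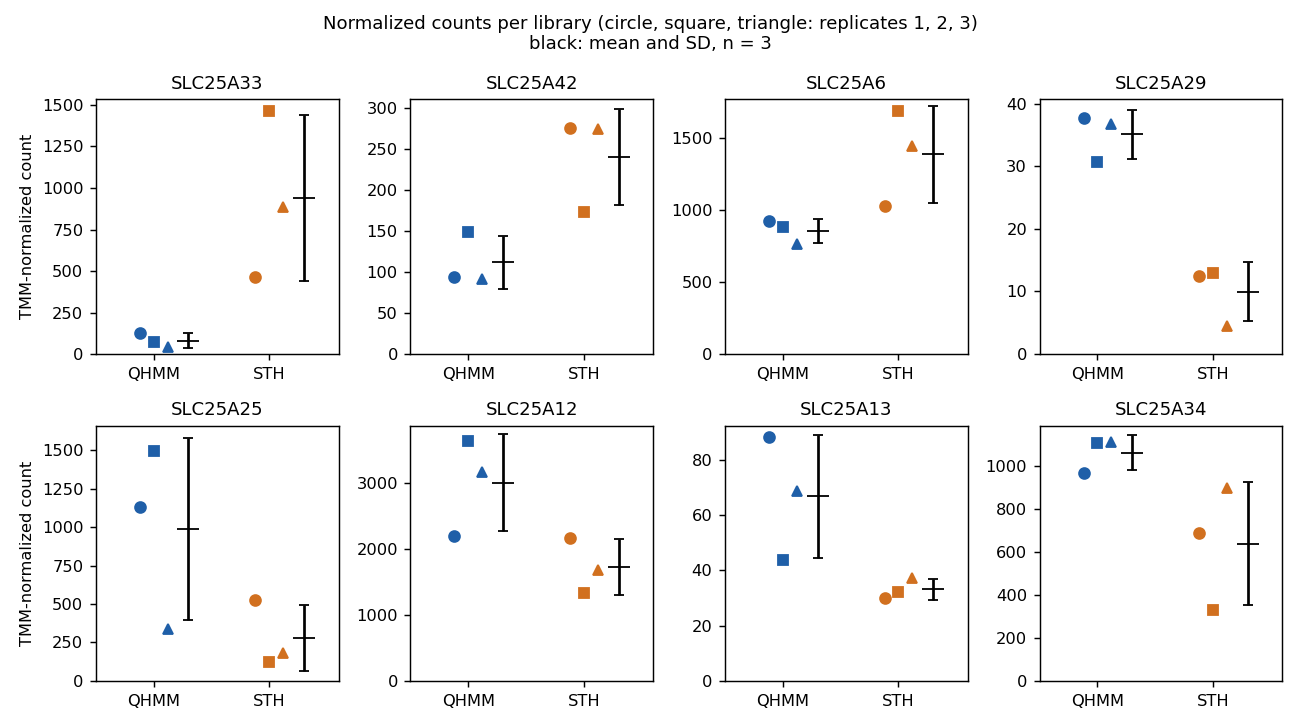
TMM-normalized counts in each library for 8 SLC25A members, with a panel and a linear axis from 0 for each (circle, square and triangle, replicates 1, 2 and 3; black, mean and SD, n = 3). STH lies above QHMM for SLC25A33, SLC25A42 and SLC25A6 and below it for SLC25A29, SLC25A12, SLC25A13 and SLC25A34, whereas for SLC25A25 QHMM replicate 3 (334) falls below STH replicate 1 (527).

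Among the adenine nucleotide and phosphate carriers, none was called, and SLC25A4 had the smallest difference. SLC25A4 had 23663, 31671 and 28411 normalized counts in QHMM and 24498, 25725 and 36066 in STH, for a log2 fold change of 0.04 (FDR = 0.951, SE 0.27) whose sign changed when some libraries were left out. SLC25A3 had 7296, 8720 and 7686 in QHMM and 6867, 7033 and 6321 in STH. All STH values of SLC25A3 were the lower ones, but its log2 fold change was only -0.23 (FDR = 0.628, SE 0.22). SLC25A6, the ADP/ATP carrier found in most tissues, had 920.0, 880.1 and 763 normalized counts in QHMM and 1025, 1684 and 1445 in STH. For SLC25A6 the breeds did not overlap, and the log2 fold change of 0.70 (FDR = 0.139, SE 0.24) was not past the threshold. SLC25A5, the ADP/ATP carrier of dividing cells, was far lower, with 46.0 to 115 normalized counts in QHMM and 35.8 to 83.5 among the STH animals. Its log2 fold change was -0.12 (FDR = 0.914, SE 0.43), and its sign changed with limma-trend on RPKM.

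SLC25A4, SLC25A5 and SLC25A6 encode closely related proteins, and reads that the genes share cannot be assigned from the counts. As a share of the summed RPKM of the 3 genes, SLC25A4 made up 94.9%, 96.5% and 96.6% in QHMM and 94.9%, 92.2% and 95.03% in STH, and SLC25A6 made up 4.58%, 3.33% and 3.22% in QHMM and 4.93%, 7.49% and 4.73% in STH. The ratio of SLC25A4 to SLC25A5 plus SLC25A6 was 18.6, 27.7 and 28.3 in QHMM and 18.7, 11.8 and 19.1 in STH. On the log2 scale its mean was 4.61 ± 0.34 (SD, n = 3) in QHMM and 4.01 ± 0.39 (n = 3) in STH, and an exact permutation test gave p = 0.3 (0.8 adjusted over 4 ratios). QHMM replicate 1 lay among the STH values.

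The ATP-Mg/phosphate carriers exchange adenine nucleotides against phosphate and thereby set the size of the nucleotide pool in the matrix, and several are regulated by calcium. SLC25A25, which has calcium-binding domains and is abundant in muscle, had 1133, 1492 and 334 normalized counts in QHMM and 527, 126 and 184 among the STH animals. Its log2 fold change of -1.81 was the lowest of the family, but QHMM replicate 3 lay below STH replicate 1 and the SE was 0.58 (FDR = 0.119). The CV of SLC25A25 was 60.1% in QHMM and 77.7% in STH. Without STH replicate 1 the log2 fold change was -2.68 and was called (FDR = 0.0259), and with any other library left out it lay between -2.23 and -1.39 and was not called. With all libraries and no filter on low counts it was -1.84 and was called (FDR = 0.0247). SLC25A23 had 56.6 to 72.8 normalized counts in QHMM and 54.9 to 93.7 in STH, for a log2 fold change of 0.15 (FDR = 0.828, SE 0.30). SLC25A24 is listed as LOC101121132, whose gene ID is that of SLC25A24 in RefSeq, and had 21.2 to 40.5 in QHMM and 38.4 to 65.7 in STH (0.52, FDR = 0.499, SE 0.38). The log2 ratio of SLC25A23 to LOC101121132 in RPKM was 1.44 ± 0.40 (SD, n = 3) in QHMM and 1.04 ± 0.68 (n = 3) in STH (exact permutation p = 0.4, adjusted 0.8). RefSeq places SLC25A23 and SLC25A41 so that they overlap, and whether the counts used strand is not stated.

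The malate-aspartate shuttle needs SLC25A11 and an aspartate/glutamate carrier, SLC25A12 or SLC25A13. SLC25A12 had 2205, 3643 and 3176 normalized counts in QHMM and 2172, 1333 and 1686 in STH. The breeds did not overlap, but QHMM replicate 1 and STH replicate 1 differed little, and the log2 fold change was -0.80 (FDR = 0.141, SE 0.27). SLC25A13, also known as citrin and best known from liver, had 88.1, 43.6 and 68.5 in QHMM and 29.9, 32.3 and 37.3 in STH, a log2 fold change of -1.02 (FDR = 0.131, SE 0.34). All STH values of SLC25A13 lay below the QHMM values. SLC25A11 had 2376, 3314 and 2009 in QHMM and 2036, 1455 and 2227 in STH, a log2 fold change of -0.43 (FDR = 0.420, SE 0.27), and the breeds overlapped. None of the 3 carriers was past the threshold.

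Aralar was the main aspartate/glutamate carrier in both breeds. The RPKM of SLC25A12 was 26.6, 88.7 and 49.3 times that of SLC25A13 in QHMM and 77.2, 43.9 and 48.1 times in STH. The log2 ratio was 5.61 ± 0.87 (SD, n = 3) in QHMM and 5.77 ± 0.44 (n = 3) in STH (exact permutation p = 1.0, adjusted 1.0). The difference of 0.16 in the log2 ratio was smaller than the spread between animals, and it turned negative without QHMM replicate 1 (-0.28) or STH replicate 1 (-0.09).

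Of the remaining di- and tricarboxylate carriers, SLC25A1, which exports citrate, had 339, 223 and 246 normalized counts in QHMM and 179.6, 173 and 226 in STH. Only STH replicate 3 reached the QHMM range, and the log2 fold change was -0.48 (FDR = 0.311, SE 0.24). SLC25A10, the dicarboxylate carrier, had 29.7 to 54.3 in QHMM and 40.9 to 56.5 in STH, a log2 fold change of 0.21 (FDR = 0.786, SE 0.33). SLC25A21, also of this group, was under the filter.

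Among the amino acid and carnitine carriers, SLC25A29 had the largest log2 fold change in size and the lowest FDR. SLC25A12 and SLC25A13, described above, are also of this group, and their STH values likewise all lay below the QHMM values. SLC25A29, a carrier of the basic amino acids arginine and lysine, had 37.8, 30.7 and 36.8 normalized counts in QHMM and 12.5, 12.9 and 4.52 in STH. All QHMM values were higher than any STH value, and the CV was 10.98% in QHMM and 47.4% in STH. The log2 fold change was -1.79 (FDR = 0.0586, SE 0.45) and just missed the threshold in edgeR, while DESeq2 called it (-1.82, FDR = 0.0158). The gene rests on few reads, with 26 to 42 per QHMM library and 4 to 15 per STH library. SLC25A20, which brings acylcarnitines into the matrix in exchange for carnitine, had 598, 768 and 749 normalized counts in QHMM and 673, 635 and 917 among the STH animals. Its log2 fold change was 0.07 (FDR = 0.897, SE 0.22), and its sign changed without QHMM replicate 1 or STH replicate 3. SLC25A38, which supplies glycine for heme synthesis, had 0.38 (FDR = 0.569, SE 0.32), and SLC25A44, linked to branched-chain amino acids, had 0.24 (FDR = 0.653, SE 0.25). SLC25A15 and SLC25A22 had at most 42.0 normalized counts in any library, and the breeds overlapped in both.

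None of the tested iron and glutathione carriers was called, and their log2 fold changes lay between -0.25 and 0.33. Red blood cells also use mitoferrin-1, and of their defining markers HBM and SLC4A1 were at 0 and ALAS2 at an RPKM of at most 0.403 in all libraries. SLC25A37 and SLC25A28, mitoferrin-1 and mitoferrin-2, import iron for heme and iron-sulfur clusters. SLC25A28 had 263, 405 and 408 normalized counts in QHMM and 419.9, 438 and 429 in STH. The STH values lay within 2.13% CV of each other and just above the QHMM values, for a log2 fold change of 0.26 (FDR = 0.581, SE 0.23). SLC25A37 had 116 to 151 in QHMM and 147 to 183 in STH, a log2 fold change of 0.33 (FDR = 0.483, SE 0.23). The gene length implied for SLC25A37 was 499 bases, and RefSeq holds another gene, LOC100147796, that carries SLC25A37 as a synonym. In RPKM the mitoferrins were near-equal, at 1.05 to 1.37 times in QHMM and 1.09 to 1.301 times in STH for SLC25A37 over SLC25A28 (log2 difference between the breeds 0.05, exact permutation p = 0.9, adjusted 1.0). This near-equality depends on the implied lengths, 499 bases for SLC25A37 and 1552 for SLC25A28. In normalized counts, SLC25A37 was the lower of the pair in each library. SLC25A39 had 1092, 1157 and 1369 normalized counts in QHMM and 983, 731 and 1322 in STH (-0.25, FDR = 0.634, SE 0.25). Its relative SLC25A40 had 0, 1 and 2 reads in QHMM and 1, 0 and 0 in STH, so no ratio of this pair was formed.

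**Figure D4:**
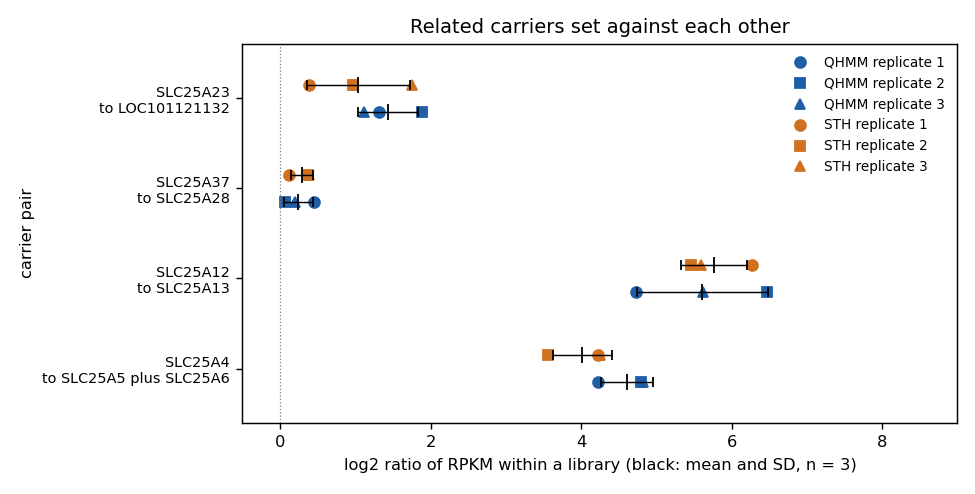
Log2 ratio of RPKM within each library for 4 pairs of related carriers (blue, QHMM; orange, STH; black, mean and SD, n = 3). The breeds overlap in all pairs, and SLC25A4 exceeds SLC25A5 plus SLC25A6, as SLC25A12 exceeds SLC25A13, in every library.

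Carriers of unsettled substrate and the uncoupling-protein-like SLC25A14 completed the family. SLC25A34, which is abundant in muscle, had 969.5, 1110.1 and 1112 normalized counts in QHMM and 688, 332 and 897.5 in STH. All STH values were lower and STH replicate 2 was the lowest, for a log2 fold change of -0.73 (FDR = 0.238, SE 0.32). SLC25A35, its closest relative by name, was lower by far in both breeds, at 13.0 to 31.5 in QHMM and 11.3 to 17.2 in STH. SLC25A43 had 126 to 163 in QHMM and 174 to 242 in STH, a log2 fold change of 0.48 (FDR = 0.315, SE 0.24). SLC25A46, an outer-membrane member that acts in mitochondrial fission, had 0.35 (FDR = 0.455, SE 0.23). SLC25A14 had 9.44 to 12.3 normalized counts in QHMM and 12.4 to 14.1 in STH, a log2 fold change of 0.27 (FDR = 0.785, SE 0.44), so that its non-overlap rested on 8 to 17 reads per library.

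Animals differed in the levels of single members. The median CV over the 34 tested members was 21.9% in QHMM and 23.9% in STH, and 18 of the 34 had the higher CV in STH. Of the 6 libraries, QHMM replicate 1 and STH replicate 2 each had the highest normalized count for 9 members, and each of the others for 4. STH replicate 2 had the highest SLC25A33 and SLC25A6 values and, at the same time, the lowest SLC25A12, SLC25A11, SLC25A34, SLC25A25 and SLC25A39 values. These members were picked out after their values had been seen.

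UCP2, UCP3, MTCH1 and MTCH2 belong to the family under other names, and 7 rows with other symbols match an SLC25 protein in the table's own protein search. UCP2 and UCP3 are uncoupling proteins, and MTCH1 and MTCH2 are outer-membrane relatives of the carriers. UCP3, the most abundant of these by RPKM and the main form in muscle, had 938, 2210 and 1485 normalized counts in QHMM and 1460, 3076 and 957 in STH, a log2 fold change of 0.25 (FDR = 0.803, SE 0.42). UCP2 had 253, 276 and 163 in QHMM and 535, 696 and 362 in STH, a log2 fold change of 1.21 (FDR = 0.0506, SE 0.29), and it was named after its values had been seen. The breeds did not overlap in UCP2, which edgeR did not call. UCP2 was called with DESeq2 (FDR = 0.00595), and by edgeR with the replicate number as a block (FDR = 0.0245), with robust dispersions, without the filter, with at least 10 counts in every library and without STH replicate 3, with an FDR of up to 0.0485. Of the 7 other rows, 3 had no reads and 4 were tested. LOC101111642, which is SLC25A30 by its RefSeq gene ID, had 422, 492 and 515 in QHMM and 195, 338 and 178 in STH, a log2 fold change of -1.01 (FDR = 0.0708, SE 0.27). All STH values were below the QHMM values, and it was called with DESeq2 (FDR = 0.0157), without the filter (FDR = 0.0330) and without STH replicate 2 (-1.37, FDR = 0.0267).

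Of 15 tested transporters of the mitochondrial membranes outside the family, 0 were called by edgeR and 3 had an unadjusted p below 0.05, and the lowest FDR was 0.0854. Over all tested genes, edgeR called 3.45%, and 19.2% had an unadjusted p below 0.05, so these counts were near the background. VDAC1, the most abundant of them and a pore of the outer membrane, had 4869, 6380 and 7196 normalized counts in QHMM and 4699, 4526 and 5044 in STH, a log2 fold change of -0.37 (FDR = 0.438, SE 0.24). Of the malate-aspartate shuttle enzymes, MDH1 and GOT1 were tested, and neither was called or had an unadjusted p below 0.05. MDH1, the cytosolic malate dehydrogenase, had 6730, 7525 and 7549 in QHMM and 5838, 4496 and 5324 in STH (-0.48, FDR = 0.285, SE 0.23). The STH values of MDH1 were all lower, as they were for SLC25A12 and SLC25A13. In SLC25A11 and in GOT1 (-0.10, FDR = 0.903, SE 0.31) the breeds overlapped. Over all tested genes, the breeds did not overlap in 24.7%. MDH2 and GOT2 were not listed under these symbols.

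Beside SLC25A20, the carnitine shuttle list had 1 of 6 genes called, where 3.45% of all tested genes were called. CPT1A, an acyltransferase that forms acylcarnitines and whose relative CPT1B prevails in muscle, rose from 54.0, 55.4 and 83.9 normalized counts in QHMM to 222, 152 and 113 in STH (1.33, FDR = 0.0491, SE 0.32). This call was lost with any 1 library left out except STH replicate 3, and with upper-quartile normalization or limma-trend on RPKM. It was also lost with the replicate number as a block (FDR = 0.0764) and without the 20 most abundant genes (FDR = 0.0506). CPT1B, at a mean RPKM of 57.5 against 3.86 for CPT1A, was not called (0.43, FDR = 0.444, SE 0.28), and the breeds overlapped. CRAT, the carnitine acetyltransferase and the most abundant gene of this list, had a log2 fold change of -0.07 (FDR = 0.920, SE 0.29) that became 0.04 with limma-trend on RPKM.

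Among the 10 tested heme and iron-sulfur genes that lie downstream of SLC25A38 and the mitoferrins, 1 was down-regulated and 1 up-regulated. Over all tested genes, 1.83% were down-regulated and 1.62% up-regulated. ALAS1, which joins glycine and succinyl-CoA in the first step of heme synthesis, fell from 2722, 2558 and 2130 normalized counts in QHMM to 1329, 1097 and 1176 in STH (-1.04, FDR = 0.0316, SE 0.22). ALAD, the enzyme of the next step, rose from 324, 532 and 478 to 958, 993 and 1071 (1.18, FDR = 0.0248, SE 0.23). Neither gene showed any overlap of the breeds. The call of ALAS1 was lost without QHMM replicate 1, 2 or 3 or STH replicate 2 or 3, with an FDR of up to 0.0969, and with limma-trend on RPKM, with an FDR of up to 0.119. That of ALAD was lost without QHMM replicate 1 or 3 or STH replicate 2 or 3, with an FDR of up to 0.0954.

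**Figure D5:**
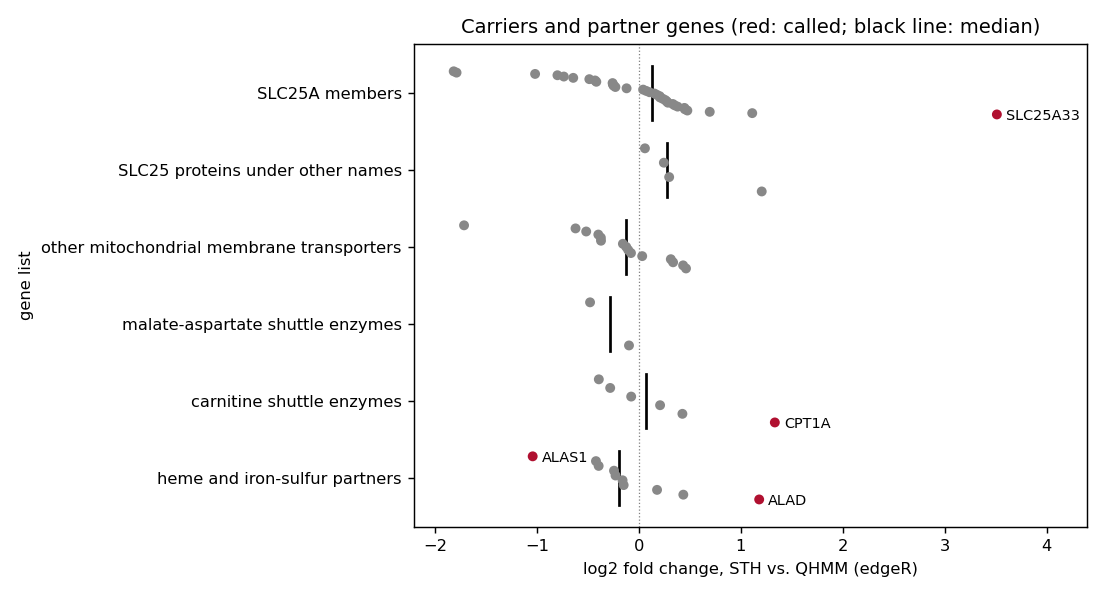
Log2 fold change (STH vs. QHMM) of the tested SLC25A members and of 5 lists of related genes, with a point per gene (red, called by edgeR) and a black line at the median of each list. Called genes are SLC25A33 at 3.51, CPT1A at 1.33, ALAD at 1.18 and ALAS1 at -1.04, and the medians of all lists lie between -0.29 and 0.27.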

How the data were processed

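Longissimus muscle RNA of 3 QHMM and 3 STH sheep was sequenced, with 1 library per animal. Filtered reads were aligned to build Oar 3.1, and the authors deposited raw counts of the uniquely placed ones per gene. They also deposited RPKM values, which are these counts scaled by gene length and library total. Aligner, counter and annotation version are not given in the sources used here. No sequences were used. RefSeq symbols (assembly ARS-UI_Ramb_v3.0) were matched for 43 of 44 members, and its gene positions served only to find overlapping and neighbouring genes.

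Counts were tested in R 4.3.3 with edgeR 4.0.16 (quasi-likelihood F test, TMM, filterByExpr, no term but breed), with Benjamini-Hochberg adjustment over all 12506 tested genes. EBSeq, the study's program, was not installed. Normalized counts are counts divided by the TMM-adjusted library total and multiplied by the median total. Shares carry 95% Wilson intervals, and single values had two-sided exact permutation tests (SciPy 1.17.1). Alternatives included DESeq2 1.42.0 and limma-trend (limma 3.58.1) on log2(RPKM + 1) and log2(RPKM + 0.1), where fold changes of low genes are understated. The scripts were tested on simulated counts. The members and lists were chosen with earlier results of these data known. Values per library are given for members that were called, for members with an FDR below 0.1 and no overlap of the breeds, for the 10 with the highest mean RPKM and for the ratio pairs. Other members, and genes of the lists that were called or had the highest mean RPKM, complete this rule, and values per library of SLC25A1, SLC25A36, SLC25A47 and LOC101111642 were added after they were seen. The values of 1 tested member are not reported here, and it is left out of the plots that name members.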

Additional observations from a re-analysis of the deposited data

How the results depend on the processing

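With each alternative that used all 6 libraries, and with any 1 library left out, SLC25A33 was called up-regulated. The number of up-regulated members was 2 with DESeq2, without a filter on low counts and with limma-trend on log2(RPKM + 1) or log2(RPKM + 0.1), as SLC25A42 was also called. The number of down-regulated members was 1 with DESeq2 (SLC25A29) and 2 without the filter (SLC25A25 and SLC25A29). DESeq2 called 3 of 34 members and 975 of 12506 genes, and the fit without the filter called 4 of 42 and 806 of 17668. Limma-trend called 2 of 31 members with either pseudocount. Of 11157 genes, it called 346 with the pseudocount of 1 and 327 with 0.1. With 1 library left out, 1 member was up-regulated each time, 0 to 1 were down-regulated, and the median log2 fold change of the members lay between 0.07 and 0.14. Leaving out both QHMM replicate 2 and STH replicate 3, which was chosen after seeing the data, gave 0 up-regulated members in edgeR, with 7 at an unadjusted p below 0.05, and a median of -0.0093. The median was 0.045 without the filter and 0.043 with at least 10 counts in every library. Some log2 fold changes that were not called reversed in sign. With limma-trend on RPKM, SLC25A5 had 0.0294 with the pseudocount of 1, with or without the filter, and 0.0437 with 0.1, and CRAT had 0.0364 and 0.0365. With limma-trend, the median of all genes was 0.12 with the pseudocount of 1 and 0.14 with 0.1, instead of 0.02. It was 0.044 with the pseudocount of 1 and no filter. SLC25A20 had -0.0524, SLC25A23 -0.18 and SLC25A4 -0.06 without both libraries. With 1 library left out, the range was -0.15 to 0.15 for SLC25A4, -0.10 to 0.16 for SLC25A20, -0.10 to 0.29 for SLC25A23 and -0.34 to 0.41 for SLC25A5 (-0.56 without both). It was -0.32 to 0.15 for CRAT, -0.20 to 0.84 for LOC101109981, -0.0719 to 1.21 for LOC101113438, -0.0036 to 0.39 for SLC25A10, -0.63 to 0.0927 for SLC25A35 and -0.0598 to 0.33 for SLC25A51. With these fits and that without both libraries, it was -0.56 to 0.67 for SLC25A15, -0.20 to 0.66 for SLC25A16 and -0.37 to 0.89 for UCP3. The share of counts differed by -0.0025 percentage points without the 20 most abundant genes, and by 0.0011 to 0.0245 with 1 library left out. The difference in log2 ratio lay between -0.28 and 0.59 for SLC25A12 to SLC25A13 and between -0.038 and 0.15 for SLC25A37 to SLC25A28. The cause of these changes was not tested. Whether the replicate numbers pair the animals is not stated. In deviations from the breed means, same-numbered libraries correlated at 0.226, -0.038 and -0.13, and differently numbered ones between -0.263 and 0.287. So few values cannot settle the question. With the replicate block, 1 member was up-regulated (3.50, FDR = 0.00726 for SLC25A33) and 0 were down-regulated. In all, 457 genes were called with the block, against 432 without it. Over all genes, 41 of 12506 were called at an FDR of 0.01 and 78 of 17668 with limma-trend without its filter. With 1 library left out, 12700 to 12893 genes were tested and 131 to 535 called. Without both libraries, 11 of 12728 were called. At these depths, members with few reads, such as SLC25A29, limit what a comparison can show.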
